A study of Homo sapiens with 12 samples.

Results

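The expression of 10 heat shock protein and cochaperone genes was examined in RKO cells, an established human colorectal cancer cell line, on 12 microarrays. The genes are DNAJA1, DNAJB1, DNAJB4 and DNAJB6 of the HSP40 family, the small heat shock protein gene HSPB1, the HSP110 gene HSPH1, the chaperonin gene HSPD1, the cochaperone gene BAG3, the secreted chaperone gene CLU and the heat shock transcription factor gene HSF1. They were chosen by name, with earlier results of these data known, and each was read from probe sets that name that gene alone. All 10 were measured, among 11963 genes with a probe set of their own, through 18 probe sets of 22215 tested. For each gene the probe set with the highest mean signal over the 12 arrays carries the values below, and some values of the other probe sets are given beside it.

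The cells formed 4 groups of 3 arrays. One group received thymoquinone (TQ, a quinone from black cumin seed) at 20 µM together with 5-fluorouracil (5-FU, a fluoropyrimidine used against colorectal cancer) at 10 µg/mL, which is 76.8 µM. The second received TQ alone, the third 5-FU alone, at the same doses, and the fourth was the control. The labels call the control cells untreated, while the methods of the study give them DMSO, so an effect of the solvent and that of a drug cannot be told apart if the labels hold. Treatment lasted 24 h. The study speaks of biological replicates in general terms, but the labels do not say that the 3 arrays of a group came from separate cultures; if they did not, p-values measure only the spread between arrays. Values are log2 signals, so that a difference of 1 is a 2-fold change.

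Chaperones keep proteins folded or refold them after damage. HSP40 proteins, which carry a J-domain, deliver unfolded proteins to HSP70 and start its ATP cycle. HSP110 proteins and BAG-domain proteins such as BAG3 exchange the nucleotide of HSP70. Small heat shock proteins hold unfolded proteins without using ATP. HSPD1 encodes HSP60, which folds proteins inside mitochondria with its partner HSPE1. CLU encodes clusterin, which binds misfolded proteins outside the cell. HSF1 encodes the factor that, after heat or other damage to proteins, binds heat shock elements, which are inverted repeats of the bases GAA, in promoters of chaperone genes.

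Promoter windows of 250 bases before to 50 bases after a transcription start were taken from RefSeq (GRCh38.p14) and searched for a pair of inverted GAA repeats, spelled GAANNTTC or TTCNNGAA. Each of these motifs reads the same on both strands, and they overlap each other where 3 repeats follow in a row. In the table, 8 of the 10 genes had a window, with 12 windows in all; CLU and HSF1 are named only. Of 35116 windows, 6.77% held GAANNTTC, 7.74% held TTCNNGAA and 13.5% held either. A motif was found in 7 of the 12 windows, from 6 genes: DNAJA1, DNAJB1, DNAJB4, DNAJB6, HSPB1 and HSPD1. Both motifs overlapping by 3 bases, so that 3 repeats follow each other, were found in 0.49% of all windows and in a window of DNAJA1, DNAJB6 and HSPD1. The windows of HSPH1 and BAG3 held neither motif. The 4 windows below are shown because they hold at least 2 motifs, which stand in capitals. They are chr9:33025023-33025322 on the plus strand for DNAJA1, chr19:14518348-14518647 on the minus strand for start 2 of DNAJB1, chr7:157336754-157337053 on the plus strand for DNAJB6 and chr2:197499791-197500090 on the minus strand for start 2 of HSPD1.
DNAJA1: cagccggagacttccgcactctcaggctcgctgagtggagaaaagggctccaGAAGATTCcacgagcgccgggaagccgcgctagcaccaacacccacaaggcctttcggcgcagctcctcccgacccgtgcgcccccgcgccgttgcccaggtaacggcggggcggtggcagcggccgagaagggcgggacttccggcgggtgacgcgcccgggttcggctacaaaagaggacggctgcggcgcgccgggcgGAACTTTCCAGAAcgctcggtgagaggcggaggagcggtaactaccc
DNAJB1: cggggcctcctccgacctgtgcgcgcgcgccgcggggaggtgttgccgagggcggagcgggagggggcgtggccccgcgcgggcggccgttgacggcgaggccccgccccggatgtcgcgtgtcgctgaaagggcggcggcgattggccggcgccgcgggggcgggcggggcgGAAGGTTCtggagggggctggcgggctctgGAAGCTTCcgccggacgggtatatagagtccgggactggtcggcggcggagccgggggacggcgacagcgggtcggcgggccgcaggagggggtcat
DNAJB6: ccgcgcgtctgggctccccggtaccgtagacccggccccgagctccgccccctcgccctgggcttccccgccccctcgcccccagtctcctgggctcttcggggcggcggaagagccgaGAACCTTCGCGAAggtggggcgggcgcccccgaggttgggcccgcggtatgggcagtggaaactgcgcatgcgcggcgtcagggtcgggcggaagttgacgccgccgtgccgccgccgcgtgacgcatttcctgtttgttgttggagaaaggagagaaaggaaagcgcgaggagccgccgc
HSPD1: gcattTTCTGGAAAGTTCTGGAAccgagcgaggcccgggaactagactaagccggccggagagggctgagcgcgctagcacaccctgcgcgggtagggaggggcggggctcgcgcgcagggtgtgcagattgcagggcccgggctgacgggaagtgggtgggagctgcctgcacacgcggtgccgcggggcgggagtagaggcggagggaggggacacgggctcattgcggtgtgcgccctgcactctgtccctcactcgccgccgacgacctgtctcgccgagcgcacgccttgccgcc
In DNAJA1 the motifs start at bases 53, 254 and 259 of the window, the last 2 of them beyond the transcription start. In DNAJB1 they start at bases 174 and 204, and in DNAJB6 at bases 120 and 125. In HSPD1 the 3 motifs start at bases 6, 11 and 16, far from the start. These letters are a description of the windows and show no binding.

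Before the results, 2 arrays have to be named. The mean correlation of an array with its replicates was 0.984, 0.978 and 0.990 with TQ+5-FU and 0.952, 0.957 and 0.911 with 5-FU, while it was 0.997 to 0.998 for the TQ and control arrays. The lowest of each group was TQ+5-FU replicate 2 and 5-FU replicate 3, and the means of the other arrays of these groups include the correlation with that array. On 5-FU replicate 3, 18.9% of all genes were more than 1 log2 unit lower than the average of its replicates. On TQ+5-FU replicate 2 this held for 8.28%. The difference between the 3' and 5' control probe sets, a sign of RNA quality, was high on TQ+5-FU replicate 2, at 0.13 for GAPDH (the other 11 arrays 0.05 to 0.09) and 0.89 for ACTB, where TQ+5-FU replicate 1 had 0.96 and the others 0.56 to 0.73. On 5-FU replicate 3 it was 0.06 for GAPDH and 0.56 for ACTB. Its part in the results was not tested. Both arrays were kept, and results are given with all 12 arrays and with the 10 others. The 2 arrays were singled out from these same data by their distance from their replicates, and 2 arrays remain in each of these groups without them. For the genes most displaced on them, leaving them out narrows the spread by construction. The p-values of the fits with 10 arrays are therefore a description only. Among epithelial markers, the keratin gene KRT18 had a median log2 signal of 12.18 and EPCAM one of 9.24, whereas KRT19, CDH1 and VIL1 were low, at medians of 3.60, 3.74 and 3.81. KRT8 and CDX2 lay between, at 7.01 and 6.66. The 6 leukocyte markers had medians from 2.94 (LYZ) to 6.18 (CD3E), the 7 fibroblast markers from 2.40 (LUM) to 8.12 (COL1A1) and the 5 endothelial markers from 3.27 (KDR) to 4.94 (VWF), so that several of them read above the low epithelial markers.

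The 2 displaced arrays split the 10 genes. DNAJA1, DNAJB4, HSPH1 and HSPD1 lay far below their replicates on both. On 5-FU replicate 3, the log2 signal minus the average of its replicates was -3.70 for DNAJB4, -3.19 for DNAJA1, -2.40 for HSPD1 and -2.19 for HSPH1. On TQ+5-FU replicate 2 it was -1.04, -0.94, -0.59 and -0.73 for the same genes. The second probe sets of these 4 genes lay on the same side, at -1.86 to -4.01 on 5-FU replicate 3. The other 6 genes lay above their replicates on both arrays, by 0.07 (DNAJB6) to 0.80 (HSF1) on 5-FU replicate 3, and 67.4% of all genes did so there. The part of this displacement in the results was not tested beyond leaving the arrays out.

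**Figure D1:**
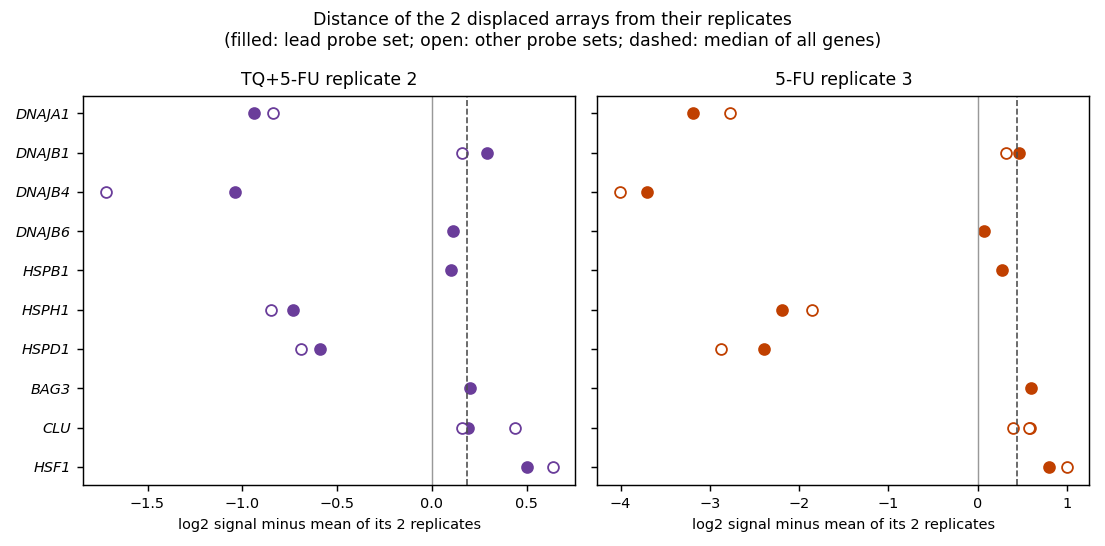
Log2 signal of each probe set on TQ+5-FU replicate 2 (left) and 5-FU replicate 3 (right) minus the mean of the other 2 arrays of its group, for the 10 genes; filled points are lead probe sets, open points other probe sets, and the dashed line is the median of all genes. DNAJA1, DNAJB4, HSPH1 and HSPD1 sit below 0 on both arrays and the other 6 genes above it.

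Across the genes, TQ went with higher signals of 4 of the 10. The effect of TQ averaged over cells with and without 5-FU was past the threshold (limma, Benjamini-Hochberg adjusted p under 0.05) for CLU, DNAJB1, BAG3 and HSPH1, all higher, against 0.535% of all genes called higher and 1.24% called in either direction. The median log2 difference of the 10 genes was 0.70, and that of all genes -0.084. For HSPH1, BAG3 and CLU every one of the 6 arrays with TQ lay above every one of the 6 without it, and 0.568% of all genes did so. Since the 10 genes were chosen with earlier results of these data known, the shares beside them are a description and no test of the set. Without the displaced arrays the average effect of TQ was called for 8 genes, all higher, with HSPB1 and HSF1 not called, against 25.0% of all genes called in either direction. Averaged over cells with and without TQ, 5-FU was called for 1 gene, CLU, against 9.96% of all genes, and without the displaced arrays for 4 (28.8%). The moderated F test across the 4 groups called the same 4 genes as the effect of TQ, CLU, DNAJB1, BAG3 and HSPH1, against 8.19% of all genes, and without the displaced arrays every gene but HSF1 (44.9%).

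**Figure D2:**
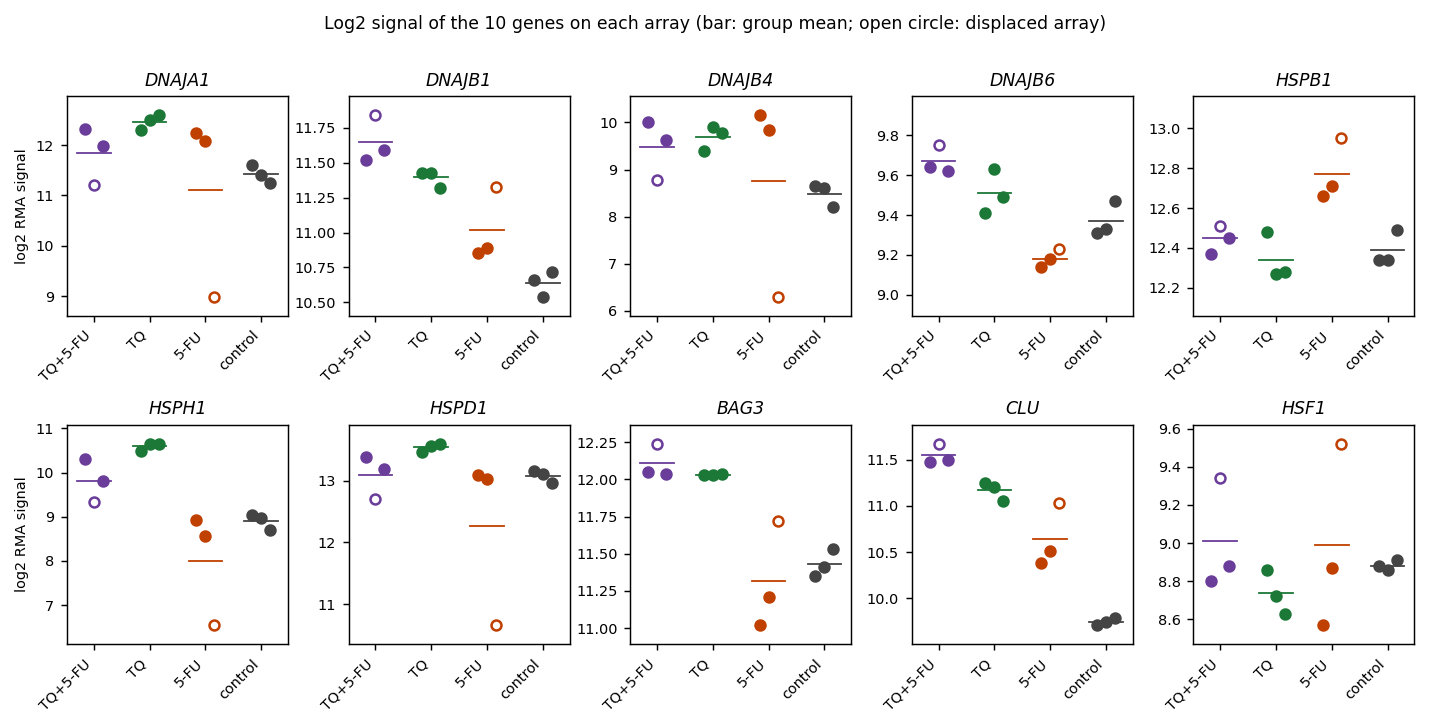
Log2 RMA signal of the 10 genes on each of the 12 arrays, by group, with bars at group means and open circles for TQ+5-FU replicate 2 and 5-FU replicate 3; each panel has its own axis. CLU, BAG3 and HSPH1 are higher on every array with TQ than on every array without it.

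Set against control, the single comparisons called few of the 10. With TQ+5-FU, 2 genes rose, CLU and DNAJB1, against 1.78% of all genes called higher and 2.63% called in either direction, and the median difference was 0.55 (all genes 0.014). With TQ, 1 gene rose, CLU, against 0.15% called higher and 0.267% in all, and the median was 0.68 (all genes -0.090). With 5-FU, 1 gene rose, again CLU, against 4.32% called higher and 7.29% in all, and the median was -0.01 (all genes 0.091). These comparisons share the control arrays. Signals did not overlap with those of control for 6 genes with TQ+5-FU, all higher (13.6% of all genes), for 7 with TQ, all higher (17.5%), and with 5-FU for 3 that were higher (14.2%) and 1 that was lower (11.4%). Without the displaced arrays the calls came to 6 with TQ+5-FU (22.7% of all genes), 7 with TQ (32.4%) and 5 with 5-FU (28.3%).

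**Figure D3:**
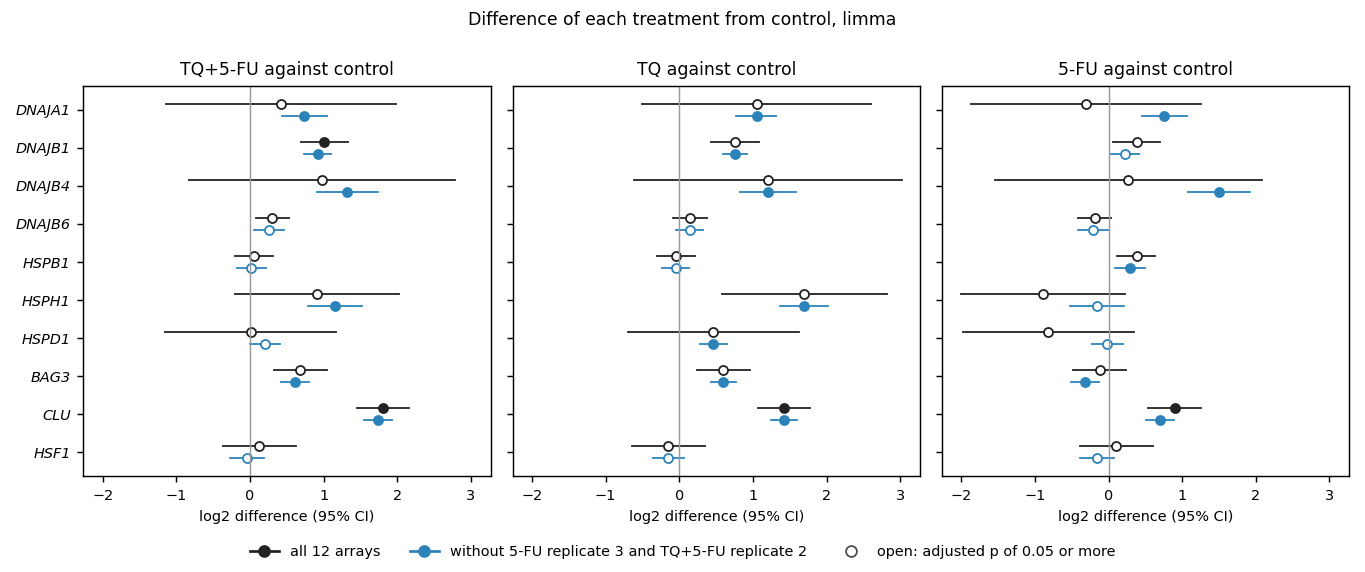
Log2 difference of TQ+5-FU, TQ and 5-FU from control for the 10 genes, with 95% confidence intervals from limma, for all 12 arrays (black) and without the 2 displaced arrays (blue); filled points have an adjusted p under 0.05. CLU is filled in every panel, and the intervals of DNAJA1, DNAJB4, HSPH1 and HSPD1 narrow most without the 2 arrays.

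CLU differed most clearly between the groups. Its log2 signals were 11.47, 11.67 and 11.50 with TQ+5-FU, 11.25, 11.20 and 11.05 with TQ, 10.38, 10.51 and 11.03 with 5-FU, and 9.71, 9.74 and 9.79 in control. The order TQ+5-FU, TQ, 5-FU and control held without overlap between neighbouring groups, although the highest 5-FU array, the displaced one, came just below the lowest TQ array. Group means were 11.55 ± 0.11 with TQ+5-FU, 11.17 ± 0.11 with TQ, 10.64 ± 0.35 with 5-FU and 9.74 ± 0.04 in control (SD, n = 3 each). Against control the log2 difference was 1.80 with TQ+5-FU (SE 0.16, limma adjusted p = 0.00036), 1.42 with TQ (SE 0.16, adjusted p = 0.0080) and 0.90 with 5-FU (SE 0.16, adjusted p = 0.0076), which are 3.49-fold, 2.68-fold and 1.86-fold.

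Averaged over the other drug, TQ raised CLU by 1.16 (adjusted p = 0.0014) and 5-FU raised it by 0.64 (adjusted p = 0.0062). TQ+5-FU exceeded 5-FU by 0.91 (adjusted p = 0.033), and this call was kept only when 5-FU replicate 3 was the array left out, with adjusted p up to 0.13 otherwise. The difference of TQ from control was 1.38 to 1.48 with any 1 array left out, but it lost its call without any 1 of the TQ or control arrays (adjusted p up to 0.073). TQ+5-FU minus TQ was 0.38 (limma, adjusted p = 0.37), and 0.32 (adjusted p = 0.041) without the displaced arrays. The other 2 probe sets of CLU differed from control the same way: 1.59 and 1.54 with TQ+5-FU, 1.29 and 0.98 with TQ, and 0.83 and 0.70 with 5-FU, of which only the value of 0.98 missed the threshold (adjusted p = 0.053). In TQ+5-FU against 5-FU these 2 probe sets were not called, at 0.76 (limma adjusted p = 0.062) and 0.84 (limma adjusted p = 0.059). Over the 12 arrays, the genes whose signals followed CLU most closely were GADD45B (Pearson r = 0.986), a stress response gene, ID2 (r = 0.98), an inhibitor of transcription factors, and DNAJB1 (r = 0.98). The 12 arrays share 4 treatments, so these coefficients describe the groups.

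Among the HSP40 genes, DNAJB1 encodes a stress-inducible partner of HSP70. On the log2 scale the signals were 11.52, 11.84 and 11.59 with TQ+5-FU, 11.43, 11.43 and 11.32 with TQ, 10.85, 10.89 and 11.33 with 5-FU, and 10.66, 10.54 and 10.72 in control. Every treated array lay above every control, and the displaced 5-FU array reached the lowest TQ array. TQ+5-FU exceeded control by 1.01 (SE 0.15, limma adjusted p = 0.0052), and this held with any 1 array left out (0.92 to 1.08, adjusted p up to 0.037). TQ minus control was 0.76 (SE 0.15, adjusted p = 0.074), and with the displaced arrays removed the same difference had an adjusted p of 0.00026. The average effect of TQ was 0.69 (adjusted p = 0.014), a call that was lost (adjusted p up to 0.060) without TQ replicate 1 or 2 or control replicate 1 or 2. The second probe set of DNAJB1 moved less and was called in no comparison with all 12 arrays: it exceeded control by 0.36 with TQ+5-FU (adjusted p = 0.18), 0.26 with TQ (adjusted p = 0.51) and 0.23 with 5-FU (adjusted p = 0.34). With the displaced arrays left out it was called, at 0.31 with TQ+5-FU against control (adjusted p = 0.019), 0.26 with TQ against control (adjusted p = 0.019) and 0.23 for the average effect of TQ (adjusted p = 0.017).

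DNAJA1, a cytosolic HSP40 gene of the class closest to bacterial DnaJ, was called in no comparison with all 12 arrays. The log2 signals of DNAJA1 were 12.33, 11.21 and 11.98 with TQ+5-FU, 12.31, 12.49 and 12.59 with TQ, 12.25, 12.09 and 8.99 with 5-FU, and 11.61, 11.40 and 11.24 in control. The TQ arrays lay above every control, and so did both 5-FU arrays other than the displaced one, which was the lowest of all. The difference from control with 5-FU was -0.31 with all arrays (limma, adjusted p = 0.82) and 0.76 (SE 0.14, adjusted p = 0.0022) without the displaced arrays, so its direction turned on those arrays. With TQ it was 1.05 in both fits, with an adjusted p of 0.70 for 12 arrays and 0.00046 for 10. The second probe set gave -0.34 with 5-FU for 12 arrays and 0.59 for 10, and 1.05 with TQ in both fits.

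DNAJB4, another cytosolic HSP40 gene, which is also on the study's own list of shared genes and so is no independent choice, had the widest spread within a group among the 10, an SD of 2.1 with 5-FU. The 12 signals on the log2 scale were 10.01, 8.78 and 9.62 with TQ+5-FU, 9.40, 9.91 and 9.78 with TQ, 10.15, 9.84 and 6.30 with 5-FU, and 8.66, 8.61 and 8.20 in control. On this probe set every array with TQ lay above every control, and 5-FU replicate 3 lay below all others. On the second probe set TQ+5-FU replicate 2 read 7.42, below the controls at 7.84, 7.75 and 7.77. None of its differences from control was called with 12 arrays (0.98 with TQ+5-FU, 1.20 with TQ, 0.27 with 5-FU). With 10 arrays they were 1.32 with TQ+5-FU (limma, adjusted p = 0.00084), 1.20 with TQ (adjusted p = 0.00082) and 1.5 with 5-FU (adjusted p = 0.00020).

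DNAJB6, an HSP40 gene whose product suppresses the aggregation of proteins, varied little. The log2 signals of DNAJB6 were 9.64, 9.75 and 9.62 with TQ+5-FU, 9.41, 9.63 and 9.49 with TQ, 9.14, 9.18 and 9.23 with 5-FU, and 9.31, 9.33 and 9.47 in control. The 5-FU arrays lay below those of every other group. TQ+5-FU minus 5-FU was 0.49 (SE 0.10, limma adjusted p = 0.063) and TQ minus 5-FU 0.33 (SE 0.10, adjusted p = 0.065), both short of the threshold. With 10 arrays these differences were 0.47 (adjusted p = 0.018) and 0.35 (adjusted p = 0.013).

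HSPH1, which encodes the inducible HSP110 protein, had the largest single difference of the 10 genes. Its log2 signals were 10.31, 9.33 and 9.80 with TQ+5-FU, 10.49, 10.65 and 10.65 with TQ, 8.93, 8.56 and 6.55 with 5-FU, and 9.03, 8.98 and 8.69 in control. TQ arrays were the highest, TQ+5-FU arrays lay between them and the arrays without TQ, and control and 5-FU arrays overlapped. TQ exceeded 5-FU by 2.59 (SE 0.50, limma adjusted p = 0.012), a 6.0-fold difference, and by 1.86 (adjusted p = 2.6e-05) without the displaced arrays. With all 12 arrays this call was lost without TQ replicate 2 or 3 (adjusted p up to 0.054). TQ minus control was 1.70 in both fits, with an adjusted p of 0.24 for 12 arrays and 0.00011 for 10. The average effect of TQ was 1.75 (adjusted p = 0.049), and it was past the threshold in only 2 of the 12 fits that left out an array, those without 5-FU replicate 1 or 3. The second probe set gave 1.77 (adjusted p = 0.033).

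BAG3, which joins HSP70 to small heat shock proteins and to autophagy, was higher with TQ whether or not 5-FU was present. On the log2 scale it read 12.05, 12.24 and 12.04 with TQ+5-FU, 12.03, 12.03 and 12.04 with TQ, 11.02, 11.21 and 11.72 with 5-FU, and 11.35, 11.41 and 11.53 in control. All 6 arrays with TQ lay between 12.03 and 12.24, above all others. The average effect of TQ was 0.70 (SE 0.11, limma adjusted p = 0.021), kept in 3 of the 12 fits that left out an array, those without TQ+5-FU replicate 2 or 5-FU replicate 1 or 3 (adjusted p up to 0.077 in the others). TQ exceeded 5-FU by 0.72 (SE 0.16, adjusted p = 0.021), a call lost without any TQ array or without 5-FU replicate 2 (adjusted p up to 0.084). Against control, TQ+5-FU differed by 0.68 (adjusted p = 0.060), TQ by 0.60 (adjusted p = 0.19) and 5-FU by -0.12 (adjusted p = 0.71). TQ+5-FU exceeded 5-FU by 0.79 (SE 0.16, limma adjusted p = 0.062). With 12 arrays the averaged effect of TQ thus passed the threshold, while its effects with 5-FU and without 5-FU, taken singly, did not. Without the displaced arrays BAG3 rose by 0.61 with TQ+5-FU (adjusted p = 0.00081) and by 0.60 with TQ (adjusted p = 0.00060), and it fell by 0.32 with 5-FU (adjusted p = 0.020).

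HSPD1 differed little between the groups, apart from the displaced arrays. The log2 signals of HSPD1 were 13.39, 12.70 and 13.19 with TQ+5-FU, 13.47, 13.56 and 13.60 with TQ, 13.09, 13.03 and 10.66 with 5-FU, and 13.16, 13.11 and 12.97 in control. The TQ arrays lay above all others. With 12 arrays no comparison was called, and TQ minus control was 0.46 (SE 0.52, limma adjusted p = 0.81). The same difference had an SE of 0.084 and an adjusted p of 0.0025 without the displaced arrays.

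HSPB1, which encodes HSP27, was highest with 5-FU. On the 12 arrays its log2 signals were 12.37, 12.51 and 12.45 with TQ+5-FU, 12.48, 12.27 and 12.28 with TQ, 12.66, 12.71 and 12.95 with 5-FU, and 12.34, 12.34 and 12.49 in control. The 5-FU arrays lay above those of every other group, and the other 3 groups overlapped. TQ was lower than 5-FU by 0.43 on the log2 scale, a difference of -0.43 (SE 0.11, limma adjusted p = 0.042), and -0.34 (adjusted p = 0.018) without the displaced arrays. With all arrays the call was kept in 3 of the 12 fits that left out an array, those without TQ+5-FU replicate 2 or 5-FU replicate 1 or 3 (adjusted p up to 0.16 in the others). 5-FU minus control was 0.38 (SE 0.11, adjusted p = 0.088), and 0.29 (adjusted p = 0.039) without the displaced arrays. TQ minus control was -0.05, with a 95% interval of -0.30 to 0.21.

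HSF1, the regulator, was called in no comparison in either fit, on either of its probe sets. The log2 signals of HSF1 were 8.80, 9.34 and 8.88 with TQ+5-FU, 8.86, 8.72 and 8.63 with TQ, 8.57, 8.87 and 9.52 with 5-FU, and 8.88, 8.86 and 8.91 in control. The 2 highest arrays were the displaced ones. The 95% interval of the difference from control ran from -0.37 to 0.62 with TQ+5-FU, from -0.64 to 0.35 with TQ and from -0.39 to 0.60 with 5-FU. The array reads HSF1 mRNA, not the activity of the protein.

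Between the treatments, the counts were as follows. TQ against 5-FU called 3 of the 10 genes, HSPH1 and BAG3 higher and HSPB1 lower with TQ, against 11.1% of all genes (3.29% higher and 7.78% lower). Of the 10, 6 were higher (15.9% of all genes) and 1 lower (24.9%) on every TQ array than on every 5-FU array. TQ+5-FU against 5-FU called 1, CLU, against 0.802% of all genes, while 5 genes, DNAJB1, DNAJB6, HSPH1, BAG3 and CLU, were higher on every TQ+5-FU array than on every 5-FU array (4.99% of all genes) and 1, HSPB1, was lower (5.31%). Without the displaced arrays the calls came to 7 for TQ against 5-FU (30.9% of all genes), 5 for TQ+5-FU against 5-FU (6.91%) and 1, CLU, for TQ+5-FU against TQ (12.7%). TQ+5-FU against TQ called 0 by limma (1.15% of all genes). At an unadjusted p under 0.05 limma gave 1 gene, CLU, and Tukey's HSD and the Benjamini-Hochberg adjusted test of the methods gave 0 each. On every array of TQ+5-FU, DNAJB1 and CLU were above TQ (20.8% of all genes) and HSPH1 and HSPD1 below it (9.79%).

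Whether the effect of one drug depended on the other was asked by the interaction, TQ+5-FU minus TQ minus 5-FU plus control. With 12 arrays limma called 0 of the 10 genes (0.167% of all genes). At an unadjusted p under 0.05 there were 2, CLU at -0.52 (limma, adjusted p = 0.79) and DNAJB6 at 0.35 (limma, adjusted p = 0.73). The share of all genes at the unadjusted p is not given, so this count does not set the 10 genes apart. Without the displaced arrays 2 genes were called, against 11.1% of all genes. These were DNAJA1 at -1.07 (SE 0.20, limma adjusted p = 0.010) and DNAJB4 at -1.38 (SE 0.27, limma adjusted p = 0.013). For DNAJA1 in those 10 arrays, TQ+5-FU differed from 5-FU by -0.02 and TQ from control by 1.05, and for DNAJB4 by -0.18 and 1.20. Both were thus higher than control with either drug, and the combination was not called different from 5-FU. These 2 genes were also the furthest below their replicates on the arrays left out, at -3.19 and -3.70 on 5-FU replicate 3. With all 12 arrays TQ+5-FU differed from 5-FU by 0.73 for DNAJA1 and 0.71 for DNAJB4. The interaction there was -0.32 (95% interval -2.52 to 1.89) for DNAJA1 and -0.5 (-3.06 to 2.07) for DNAJB4. The direction of TQ+5-FU minus 5-FU thus turned on the arrays left out.

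**Figure D4:**
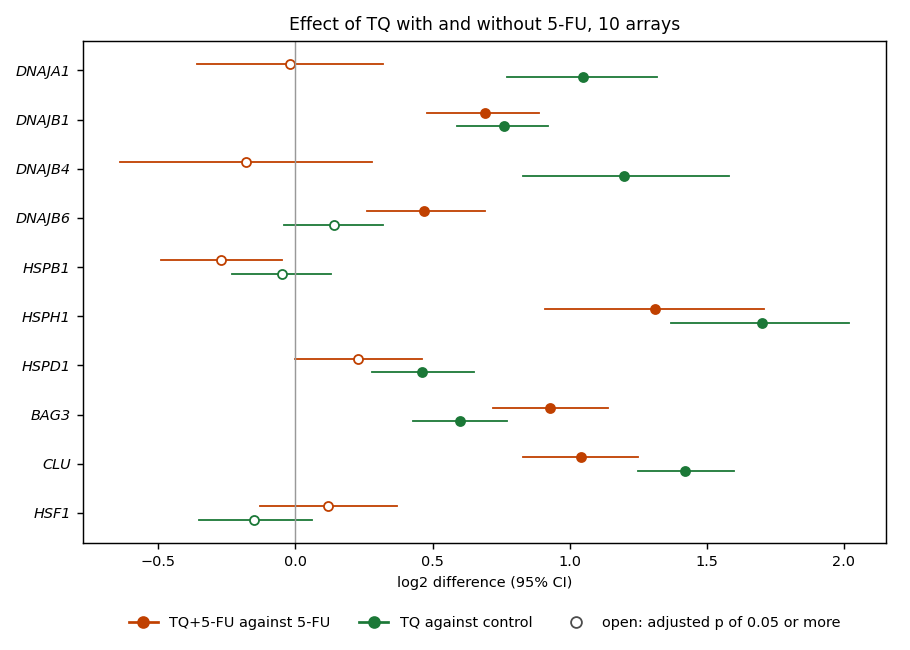
Log2 difference between cells with and without TQ, in the presence of 5-FU (TQ+5-FU against 5-FU) and in its absence (TQ against control), for the 10 genes with 95% confidence intervals from limma on 10 arrays, without the 2 displaced ones; filled points have an adjusted p under 0.05. The intervals of DNAJA1 and DNAJB4 lie apart, around -0.02 and 1.05 and around -0.18 and 1.20. With all 12 arrays, not drawn, TQ+5-FU against 5-FU was 0.73 for DNAJA1 and 0.71 for DNAJB4.

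The rest of the chaperone system gives the setting. For this, 89 other genes of the chaperone system were measured. Of these, 3 come from a list of heat shock factors, which are not chaperones, HSF2BP among them. With all 12 arrays 2 of the 89 rose and 0 fell with TQ+5-FU against control, 1 rose and 0 fell with TQ, and 5 rose and 3 fell with 5-FU. At an unadjusted p under 0.05 in limma, 6 were higher and 2 lower with TQ+5-FU, and 5 higher and 4 lower with TQ. With 10 arrays, 16 of the 89 rose and 7 fell with TQ+5-FU, 26 rose and 12 fell with TQ, and 15 rose and 17 fell with 5-FU. Of all genes, 22.7%, 32.4% and 28.3% were called in either direction in these comparisons with 10 arrays. With 12 arrays the shares were 2.63%, 0.267% and 7.29%. In either direction, the Benjamini-Hochberg adjusted test of the methods called 3 with TQ+5-FU and 24 with TQ, and Tukey's HSD 3 and 3. The share of all genes is not given for these tests or for the unadjusted p. With 12 arrays the gene that rose with each treatment was HSPA6, an inducible HSP70 gene, whose group means were 9.08 ± 0.37 with TQ+5-FU, 8.17 ± 0.17 with TQ, 6.38 ± 0.62 with 5-FU and 5.22 ± 0.093 in control (SD, n = 3 each). HSPA1L, also of the HSP70 family, rose by 0.72 with TQ+5-FU (limma adjusted p = 0.043).

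Of the 28 other HSP40 genes measured, none of which is among the 10, limma with all 12 arrays called 0 with TQ+5-FU and 0 with TQ against control. At an unadjusted p under 0.05, 2 were higher and 0 lower with TQ+5-FU, and 2 higher and 3 lower with TQ. The Benjamini-Hochberg adjusted test of the methods called 0 and 9 of them, and Tukey's HSD 0 and 1. With 5-FU, 3 rose, DNAJB5 by 1.00 (limma adjusted p = 0.042), DNAJC22 by 0.70 (limma adjusted p = 0.020) and DNAJC1, and SEC63, an HSP40 gene of the endoplasmic reticulum membrane, fell by 0.83 (limma adjusted p = 0.046). The share of all genes called with 5-FU in either direction was 7.29%. With 10 arrays, 9 of these 28 rose and 2 fell with TQ+5-FU, 9 rose and 5 fell with TQ, and 8 rose and 5 fell with 5-FU. Of all genes, 22.7%, 32.4% and 28.3% were called there in either direction.

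The other 3 of the 89 genes called against control with 12 arrays were called with 5-FU. STIP1, which links HSP70 to HSP90, fell by 0.44 (limma adjusted p = 0.012). GRPEL1, the nucleotide exchange factor of mitochondrial HSP70, fell by 0.71 (limma adjusted p = 0.047). HSF2BP, whose product binds the factor HSF2, rose by 1.49 with 5-FU (limma adjusted p = 0.00018) and was lower with TQ+5-FU than with 5-FU, a difference of -1.23 (limma adjusted p = 0.0036).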

How the data were processed

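RNA of RKO cells was measured on 12 Affymetrix human expression arrays, 3 for each of 4 groups, which were taken from the sample labels. The authors deposited log2 signals normalized with RMA, 1 column for each array; the methods name GeneSpring GX and the submitters' processing notes Affymetrix Expression Console. RMA sets the arrays on a common distribution, and array medians ran from 6.34 to 6.57. The log2 values were used as deposited, without further scaling or filtering.

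No test used the 62 control probe sets. Of the other 22215, 19064 name 1 gene, 1043 several and 2108 none. DNAJB6 is read from 1 probe set, since those that name a further gene were not used. Differences were fitted with limma 3.58.1 in R 4.3.3, with 1 mean for each group and 12 arrays in 1 fit, empirical Bayes moderation and Benjamini-Hochberg adjustment over all 22215 probe sets at a threshold of 0.05. A rise or fall is a call at that threshold. The share of all genes called counts 1 probe set for each of 11963 genes. The script was tested on simulated data.

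All 10 genes are described, and from each other chaperone list the genes past the threshold with the largest differences; DNAJC1 was named after its values were seen. The members and lists were chosen with earlier results of these data known. The alternatives were quantile normalization, centring, a filter on the dimmest 30% of probe sets, the ANOVA with Tukey's HSD and the t-test of the methods, limma on the compared groups, a replicate block, array weights, another variance prior, other probe set choices, and leaving out arrays. Gene-by-gene array weights were added after the data had been seen. Promoter windows came from a RefSeq table, and figures from Python 3.11.15 with matplotlib 3.10.9.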

Additional observations from a re-analysis of the deposited data

How the results depend on the processing

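Of 2220 log2 differences of single genes under the alternatives, 1866 kept direction and side of the threshold, 196 gained a call, 81 lost one, 70 turned sign without a call and 7 turned sign with one. The last were DNAJA1 in 5-FU against control (0.68 with array weights, 0.71 with gene-by-gene weights, 0.76 without the 2 displaced arrays), DNAJB4 in TQ+5-FU against 5-FU (-0.23 with array weights), and the interaction of HSPH1 (-0.48 with array weights, -0.53 with gene-by-gene weights) and HSPD1 (-0.32 with array weights). The cause was not tested.

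The counts of the 10 genes called moved by over 1.5 times as follows. Without the 2 displaced arrays they were 6 for TQ+5-FU, 7 for TQ and 5 for 5-FU against control, 1 for TQ+5-FU against TQ, 5 for TQ+5-FU against 5-FU, 7 for TQ against 5-FU, 2 for the interaction, 8 and 4 for the average effects of TQ and 5-FU and 9 for the F test. In the same order, array weights gave 7, 8, 8, 7, 8, 8, 9, 9, 7 and 10, and gene-by-gene weights 7, 8, 7, 6, 6, 7, 6, 9, 7 and 9. The share of all genes called is not given for the weights or for the alternatives that follow. Their counts therefore do not set the 10 genes apart from the other genes. The ANOVA with Tukey's HSD gave 4 for TQ+5-FU and 3 for TQ against control and 4 for TQ+5-FU against 5-FU. Its counts stayed at 3 for TQ against 5-FU and 4 for the F test, but the genes changed. In TQ against 5-FU they were DNAJB6, BAG3 and CLU, without HSPH1 and HSPB1. In the F test DNAJB6 took the place of HSPH1. The methods' t-test, unadjusted, gave 5, 7 and 3 for TQ+5-FU, TQ and 5-FU against control, 1 for TQ+5-FU against TQ and 5 for TQ+5-FU against 5-FU. Both that test after Benjamini-Hochberg adjustment and limma on the compared groups gave 7 for TQ against control and 0 for 5-FU against control, TQ+5-FU against 5-FU and TQ against 5-FU. Another variance prior gave 2 for 5-FU against control, TQ+5-FU against 5-FU and the average effect of 5-FU. Centring gave 0 for TQ+5-FU against 5-FU, 1 for TQ against 5-FU and 2 for the average effect of TQ, and the median over probe sets 0 for TQ+5-FU against 5-FU. Quantile normalization, the filter on dim probe sets and 1 probe set a gene stayed within 1.5 times. With each array left out in turn, the counts ran from 2 to 4, 0 to 6 and 1 to 2 for TQ+5-FU, TQ and 5-FU against control, 0 to 2 for TQ+5-FU against TQ, 0 to 5 for TQ+5-FU against 5-FU, 0 to 6 for TQ against 5-FU, 0 to 0 for the interaction, 1 to 5 and 1 to 2 for the average effects of TQ and 5-FU, and 2 to 7 for the F test.

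The planned array weights stopped before convergence, with a weight of 110 for TQ+5-FU replicate 3 and 0.0063 for 5-FU replicate 3, so their calls rest on few arrays. The gene-by-gene estimate was therefore chosen after seeing that fit; it gave 9.48 and 0.0247 to the same arrays. Replicate numbers gave no clear pairing: of 18 same-numbered pairs, 6 had deviations correlated above 0.1 (range -0.836 to 0.859). An array correlated best with its own number in 10 of 36 cases. The displaced arrays TQ+5-FU replicate 2 and 5-FU replicate 3 correlated at 0.883. Their displacement enters the deviations of both groups, so the check cannot tell whether same-numbered arrays shared a culture or run. With the replicate block the counts were 0 of 10 in TQ against control and 0 in TQ+5-FU against 5-FU, and they stayed within 1.5 times elsewhere. The block left out the calls of CLU in both of these (adjusted p = 0.051 and 0.097), of HSPB1 in TQ against 5-FU (adjusted p = 0.078) and of HSPH1 for the average effect of TQ (adjusted p = 0.078) and the F test. 3 arrays a group limit the precision.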
